A study of Mus musculus with 10 samples.

Results

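The cytosolic ribosome's protein genes were followed in tumour-associated macrophages. Their 81 loci were picked from the 46957 loci of each sample table by symbol: Rpl or Rps followed by a number, with an optional letter or x, and Rplp0, Rplp1, Rplp2 and Rpsa. Symbols marked as pseudogenes by -ps and the S6 kinases were left out, and the rule kept Rpl6l and Rps4l, which GENCODE annotates as pseudogenes. Of the 81 loci, 60 list 1 symbol and 21 also list another gene, most often a small nucleolar RNA inside an intron, and such a locus has 1 value for all its genes. The macrophages came from 4T1 tumours, a mouse mammary carcinoma line implanted into the mammary fat pad in mice of the BALB/cJ strain. They were sorted as live cells (7AAD-) that carried CD45, CD11b and F4/80 and lacked CD8, Ly6C and Ly6G. The 5 vehicle samples came from mice given PBS. The 5 JHU083 samples came from mice given 1 mg/kg of JHU083, a prodrug of the glutamine antagonist 6-diazo-5-oxo-L-norleucine, from day 7 to day 13. Every tumour was harvested and sorted on day 14, and both groups share the strain, the tumour line and the sort. The labels do not say whether each sample is a separate animal or a pool, so p-values measure the spread between these samples.

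Ribosomal proteins and ribosomal RNA make up the small subunit, which decodes the mRNA, and the large subunit, which forms the peptide bond. The proteins are needed in matched amounts, and their mRNAs are among the most abundant in most cells. Many of these mRNAs begin with a terminal oligopyrimidine (TOP) tract, a cytosine followed by a run of cytosines and uracils at the cap, through which mTORC1 and the cap-binding protein Larp1 control their translation and stability. Glutamine supports mTORC1 activity in many cell types.

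The start-site sequences are shown for members with and without such a tract. RefSeq start sites (GRCm38.p6) were found for 59 of the 81 members, and the annotated start base opened a tract of a cytosine and at least 4 more pyrimidines, read as C or T, in 13 of them (22.0%), against 3.01% of all 27025 promoters. With a tract allowed to begin within 10 bases of the start, the shares were 64.4% of members and 34.4% of all promoters. A member with several annotated starts counted if any of them had the tract, whereas the background is counted by promoter. The shares are thus not in like units. Each window below holds 10 bases before the annotated start and 20 from it, on the coding strand, and capitals mark the tract nearest the start.
Rps6, chr4:86857348-86857377, minus strand: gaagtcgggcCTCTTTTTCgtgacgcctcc
Rps10, chr17:27635225-27635254, minus strand: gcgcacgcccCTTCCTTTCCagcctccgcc
Rps15a, chr7:118116128-118116157, minus strand: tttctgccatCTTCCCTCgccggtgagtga
Rps27, chr3:90213629-90213658, minus strand: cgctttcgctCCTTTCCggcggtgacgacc
Rpl35, chr2:39005112-39005141, minus strand: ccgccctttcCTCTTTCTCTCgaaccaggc
Rpl28, chr7:4792955-4792984, plus strand: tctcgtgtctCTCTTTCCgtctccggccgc
In these 6 members the tract opens at the start base itself. The next 4 are the members called lower with all samples, described further on, and none of them has a tract at the annotated start base.
Rps2, chr17:24720053-24720082, plus strand: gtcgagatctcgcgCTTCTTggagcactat
Rps15, chr10:80292421-80292450, plus strand: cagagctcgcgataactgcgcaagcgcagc
Rpsa, chr9:120127756-120127785, plus strand: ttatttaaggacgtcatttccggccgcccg
Rpl27, chr11:101442235-101442264, plus strand: ctgttcctgtctgctgctcgtgctgctaat
In Rps2 a tract opens at base 5 from the annotated start, and in Rps15, Rpsa and Rpl27 these windows hold none at the searched length. Among the 31 members with a start site that were lower once JHU083 replicate 3 was left out, 11 (35.5%) had it at the start base and 74.2% within 10 bases. The annotated start is not a start measured in these macrophages.

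The libraries held 11147870 to 15740700 fragments assigned to loci. Markers of macrophages were abundant, and F4/80 itself (Adgre1) averaged 595 CPM (fragments scaled to a common library total) in vehicle and 922 CPM in JHU083. Summed over 12 loci, macrophage markers ran from 21558 to 26579 CPM in vehicle and from 25476 to 33581 CPM in JHU083. All 11 tumour epithelial markers tested were lower after JHU083 in edgeR's quasi-likelihood test at an adjusted p under 0.05, where 18.3% of all loci were lower and 18.4% higher; the counts of markers that follow stand against the same shares. Over the 12 listed, they summed to 313 to 745 CPM in vehicle and 102 to 218 CPM in JHU083. Of 24 cell cycle genes, 21 were lower, with summed levels of 1305 to 1607 and 695 to 867 CPM. Of 7 neutrophil markers tested, 3 were lower (S100a8, S100a9 and Mmp9) and 1 higher (Csf3r, 0.53), and their defining gene Ly6g had at most 2 fragments in a library. The 11 listed summed to 345 to 765 and 173 to 329 CPM, of which Mmp9, a protease that macrophages also make, gave 236 to 644 and 63.5 to 233 CPM. Of the fibroblast and endothelial markers, 5 of 10 were lower (Col1a1, Col1a2, Col3a1, Pdgfra and Pecam1), with sums of 244 to 413 and 88.4 to 168 CPM. Pecam1 gave 111 to 194 and 22.6 to 71.3 CPM of these sums. Dcn, Lum and the endothelial genes Cdh5 (-0.49; edgeR adjusted p = 0.176), Kdr (-0.15; adjusted p = 0.362) and Vwf (-0.01; adjusted p = 0.97) were not called. Markers of 3 further cell types were low in level and, where called, higher. Eosinophil markers summed to 7.75 to 13.9 CPM in vehicle and 20.5 to 39.8 CPM in JHU083, groups that did not overlap, and 2 of 4 tested were higher (Ear2, 2.30, and Siglecf, 0.89). Lymphocyte markers summed to 28.1 to 33.3 and 35.8 to 53.7 CPM, also without overlap, and 1 of 2 tested was higher (Cd4, at 12.8 to 16.5 and 25.6 to 40.7 CPM). The other, Klrb1c, stood at -0.38 (edgeR adjusted p = 0.0563), and at -0.42 (adjusted p = 0.0293) with GC content and length taken out as an offset. Dendritic cell markers summed to 23.0 to 30.1 and 24.2 to 39.2 CPM, and 1 of 6 tested was higher (Cd209a, 2.09). The part of these other cells in the ribosomal protein values was not tested, and in sorted bulk RNA fewer cells of a type cannot be told apart from less RNA per cell.

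Ribosomal protein loci took up 6.56%, 6.17%, 5.66%, 6.47% and 6.61% of all fragments in vehicle replicates 1 to 5. In JHU083 replicates 1 to 5 they took up 5.20%, 4.63%, 6.74%, 5.54% and 4.93%. Thus 4 of the 5 JHU083 samples lay below every vehicle sample, and JHU083 replicate 3 lay above every vehicle sample. The means were 6.29% ± 0.394 (SD, n = 5) and 5.41% ± 0.816 (SD, n = 5), a difference of -0.89 percentage points. Without JHU083 replicate 3 the treated mean was 5.07% ± 0.387 (SD, n = 4) and the difference -1.22 points. Counting error is small beside these gaps, since the exact (Clopper-Pearson) 95% interval of a share reached at most 0.014 points either side. Intervals cover counting error only. Both subunits showed the same order of samples. The large-subunit share averaged 3.71% ± 0.224 in vehicle and 3.19% ± 0.472 in JHU083, and the small-subunit share 2.58% ± 0.171 and 2.22% ± 0.344 (SD, n = 5 each).

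**Figure D1:**
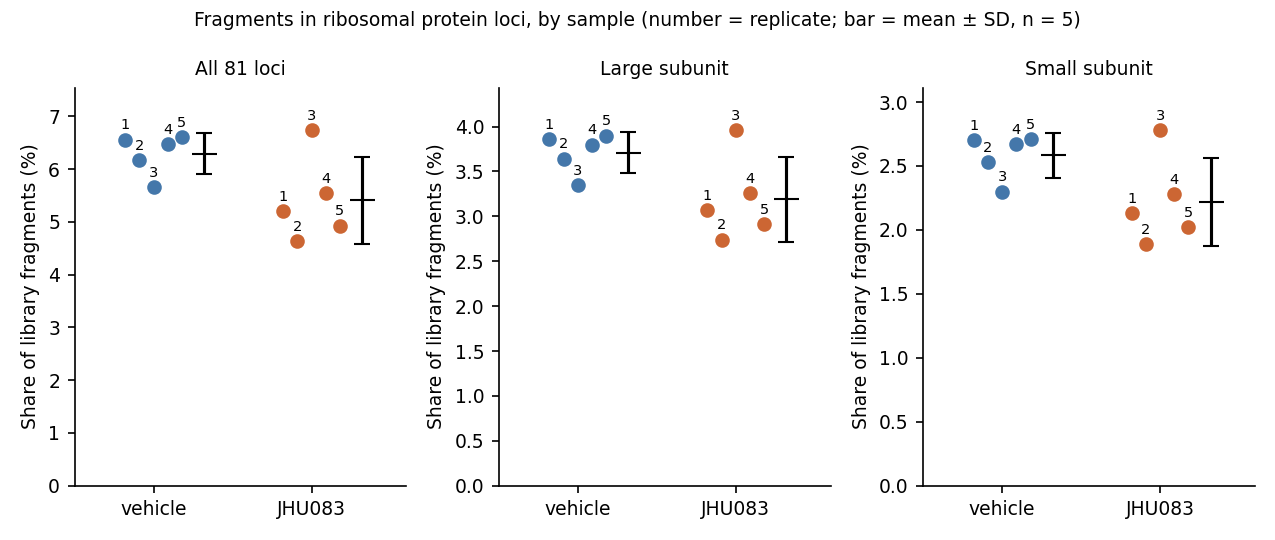
Share of each library's fragments (%, vertical axis from 0) in all 81 ribosomal protein loci, in large-subunit loci and in small-subunit loci, with 1 point per sample labelled by its replicate number and a bar for the mean ± SD. In each panel JHU083 replicate 3 is the highest of the 10 samples and the other 4 JHU083 samples lie below the vehicle samples.

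The deposited tables differ in 1 respect that enters the total. The loci Rn18s-rs5 and Gm42418, which hold ribosomal RNA sequence, are listed at 0 in vehicle replicates 2, 4 and 5 and JHU083 replicates 1 and 3, and hold 2.87% to 5.59% of fragments in the other 5 libraries. With these and the mitochondrially encoded loci left out of the total, the shares were 6.52% ± 0.314 in vehicle and 5.70% ± 0.758 in JHU083 (SD, n = 5 each). Among the libraries not at 0, the shares were 6.56% and 5.66% in vehicle and 4.63%, 5.54% and 4.93% in JHU083, and these groups did not overlap. Among the libraries at 0, they were 6.17%, 6.47% and 6.61% in vehicle and 5.20% and 6.74% in JHU083, which overlap through JHU083 replicate 3.

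Of the 81 loci, 77 passed edgeR's filter on low counts and were tested. In edgeR's quasi-likelihood test on all 10 samples, 4 of the 77 were lower in JHU083 at a Benjamini-Hochberg adjusted p under 0.05 and 0 were higher, while 36.7% of all 12501 loci tested were called (18.4% higher and 18.3% lower). The called share of members was 5.19%, all lower, and 66 of the 77 log2 fold changes were below 0. The median log2 fold change of the members was -0.13 (quartiles -0.19 and -0.06), against 0.01 (quartiles -0.25 and 0.27) for all loci. At an unadjusted p under 0.05 there were 11 members, each lower. DESeq2 called 10 lower and 0 higher, and limma-voom 7 lower and 0 higher. Shares of all loci at the unadjusted threshold and in these 2 programs are not given here, so these counts have no background. For no member did the 2 groups' CPM values fail to overlap, whereas 11.1% of all loci lay wholly lower and 11.2% wholly higher in JHU083.

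Leaving out JHU083 replicate 3 raised the count to 42 of 77 lower, with 0 higher, where 46.0% of 12660 loci were called (22.9% higher and 23.1% lower). The unadjusted count was then 52 members, for which no share of all loci is given here, and the median log2 fold change -0.22. In the large subunit 24 of 45 loci were lower and in the small subunit 18 of 32. The groups then did not overlap for 14 members, all lower, against 17.4% of all loci. The 4 members called with all samples were among the 42. For the fits without any other single sample, the shares of all loci called are not given here. Leaving out any other single sample gave between 1 and 7 lower calls: leaving out vehicle replicate 1, 4 or 5 or JHU083 replicate 1, 2 or 5 left 1 lower call each, leaving out JHU083 replicate 4 left 2, and leaving out vehicle replicate 2 or 3 gave 4 and 7. Beside this, JHU083 replicate 3 had the lowest summed tumour epithelial markers of the 10 samples (102 CPM), the lowest fibroblast and endothelial sum of the 10 (88.4 CPM) and the highest neutrophil sum of the JHU083 samples (329 CPM, of which Mmp9 was 233 CPM). The part of these values in its ribosomal protein level was not tested.

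Within the libraries that share the status of Rn18s-rs5 and Gm42418, the counts also differed. Among the 5 libraries not at 0 (2 vehicle, 3 JHU083), 5 of 77 members were lower and 0 higher in edgeR's test, where 21.7% of all loci were called (11.9% lower and 9.82% higher), and the members' median log2 fold change was -0.22. At an unadjusted p under 0.05 there were 14 members, a count with no share of all loci to set beside it here. Among the 5 libraries at 0 (3 vehicle, 2 JHU083, replicate 3 included), 0 members were called and 0 had an unadjusted p under 0.05, where 8.79% of all loci were called (4.61% lower and 4.18% higher), and the median was 0.01. With the status as a covariate over all 10 samples, 5 members were lower and 0 higher, where 34.3% of all loci were called (17.6% lower and 16.7% higher).

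**Figure D2:**
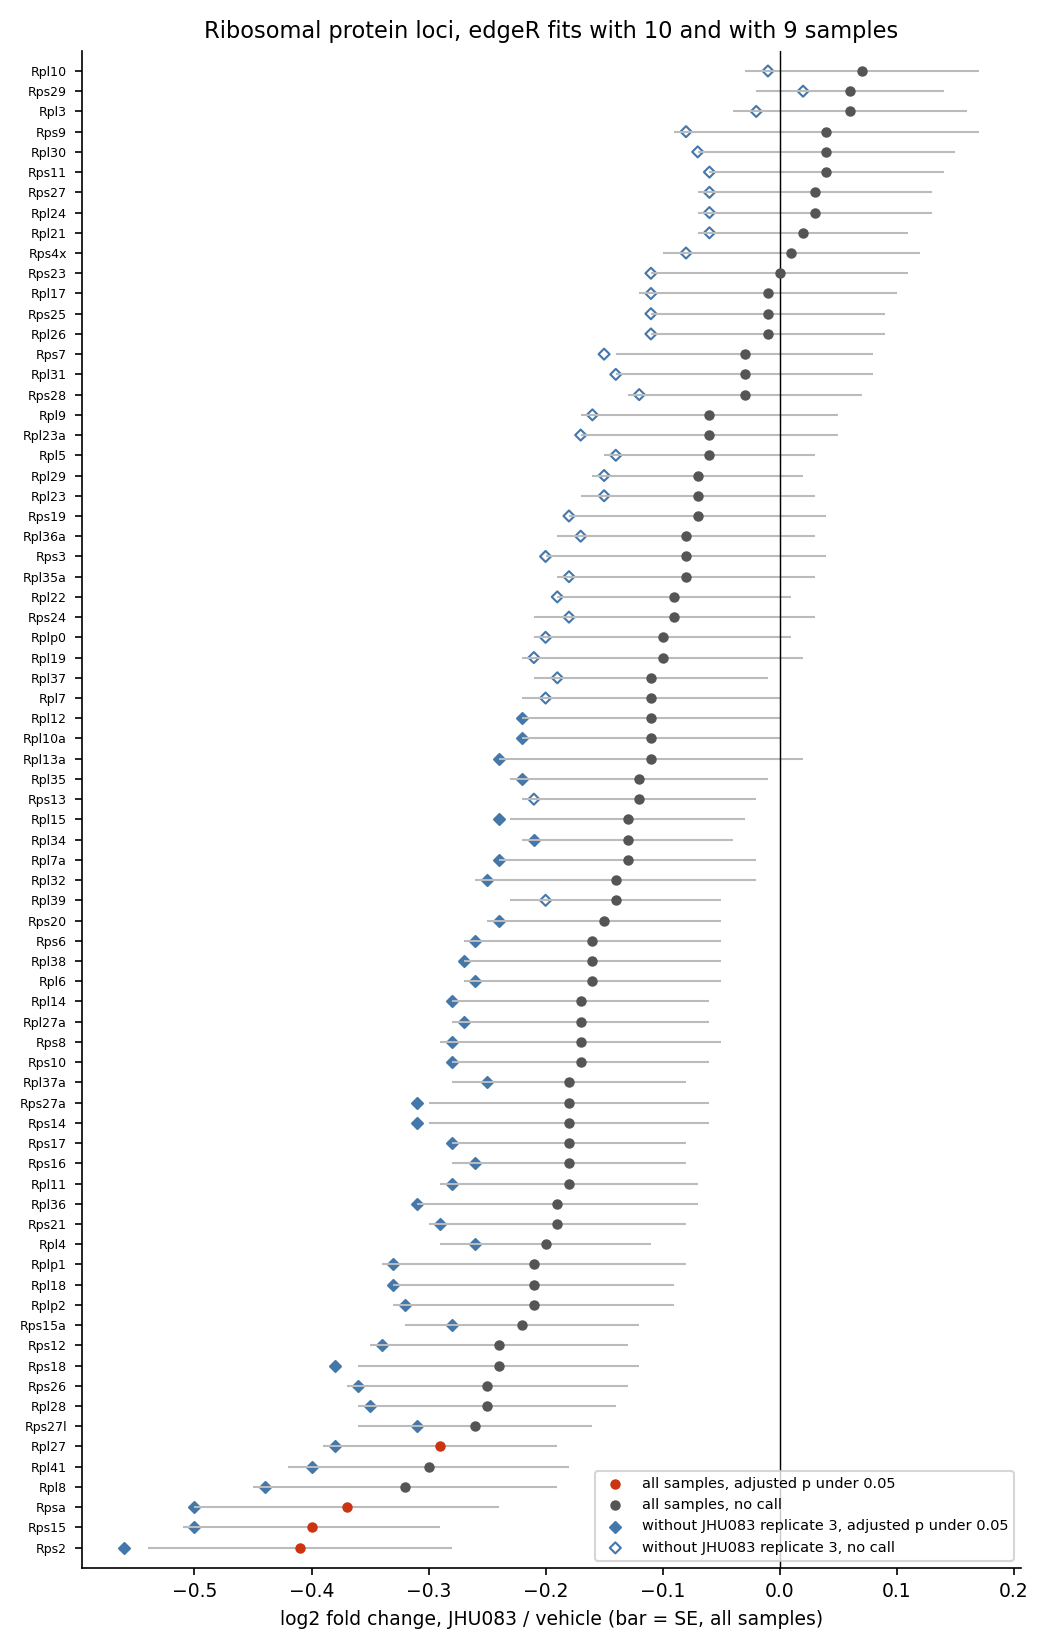
Log2 fold change (JHU083 over vehicle, horizontal axis) of 74 ribosomal protein loci, 1 per line, from edgeR. Circles are fits with all 10 samples with bars of 1 SE, red where the adjusted p was under 0.05 (4 loci); diamonds are fits without JHU083 replicate 3, filled where it was (40 of the loci drawn). The paralog Rps4l, at about 1 CPM, is among the loci not drawn.

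The members called lower with all samples were Rps2, Rps15, Rpsa and Rpl27. Rps2 lies at the mRNA entry side of the small subunit. Its CPM was 340, 299, 276, 317 and 346 in vehicle and 223, 185, 336, 241 and 204 in JHU083. Replicate 3 of JHU083 lay within the vehicle range and the other 4 below it. The log2 fold change was -0.41 ± 0.13 (SE; edgeR adjusted p = 0.028), and -0.56 without that replicate (adjusted p = 0.000217).

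Rps15, a small-subunit head protein needed for export of the subunit's precursor from the nucleus, was at 979, 859, 799, 949 and 990 CPM in vehicle. In JHU083 it was at 651, 562, 870, 747 and 630 CPM. Again 4 of 5 treated samples were below the vehicle range. Its log2 fold change was -0.40 ± 0.11 (SE; edgeR adjusted p = 0.0122), and it stayed lower with each of the 10 samples left out in turn (adjusted p from 0.00082 to 0.0371).

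Rpsa, the small-subunit protein also known as the laminin receptor precursor, was at 2120, 1810, 1698, 2022 and 2131 CPM in vehicle and 1397, 1256, 2051, 1518 and 1352 CPM in JHU083. The log2 fold change was -0.37 ± 0.13 (SE; edgeR adjusted p = 0.0385). The large-subunit protein Rpl27 was at 580, 525, 507, 561 and 600 CPM in vehicle and 440, 388, 571, 454 and 422 CPM in JHU083. Its log2 fold change was -0.29 ± 0.10 (SE; edgeR adjusted p = 0.0308). In both, JHU083 replicate 3 alone reached the vehicle range. The calls of Rps2, Rpsa and Rpl27 were each lost on leaving out vehicle replicate 1, 4 or 5 or JHU083 replicate 1, 2, 4 or 5, with adjusted p up to 0.0749, 0.0974 and 0.0792.

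Just outside the threshold, Rpl41, the smallest ribosomal protein, had a log2 fold change of -0.30 (edgeR adjusted p = 0.0537). Rps27l was at -0.26 (adjusted p = 0.0537) and Rpl8, which lies near the peptidyl transferase centre, at -0.32 (adjusted p = 0.0729). Without JHU083 replicate 3 these 3 were lower as well, at -0.40, -0.31 and -0.44. When GC content and length were also taken out of each sample as an offset, a fit described further on, Rps27l stayed lower (-0.31; adjusted p = 0.00757). The calls of Rpl41 (-0.14; adjusted p = 0.136) and Rpl8 (-0.16; adjusted p = 0.12) ended.

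The upstream sequence of Rps2 and of Rpsa is shown because both hold the ETS core, CCGGAAG or its other-strand form CTTCCGG, a motif common in promoters of ribosomal protein genes. The core, chosen after the data were seen and searched on both strands of the 300 bases around each start, occurred in 42.4% of the 59 members with a promoter and in 9.93% of all 27025. Members were again counted over all their annotated starts and the background by promoter. The 250 bases before the start are printed on the coding strand, with the core in capitals.
Rps2, chr17:24719813-24720062, plus strand: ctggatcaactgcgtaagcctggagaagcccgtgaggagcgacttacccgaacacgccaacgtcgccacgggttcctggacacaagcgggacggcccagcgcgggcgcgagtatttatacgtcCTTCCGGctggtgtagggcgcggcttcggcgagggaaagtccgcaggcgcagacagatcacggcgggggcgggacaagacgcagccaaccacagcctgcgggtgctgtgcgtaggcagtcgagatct
Rpsa, chr9:120127516-120127765, plus strand: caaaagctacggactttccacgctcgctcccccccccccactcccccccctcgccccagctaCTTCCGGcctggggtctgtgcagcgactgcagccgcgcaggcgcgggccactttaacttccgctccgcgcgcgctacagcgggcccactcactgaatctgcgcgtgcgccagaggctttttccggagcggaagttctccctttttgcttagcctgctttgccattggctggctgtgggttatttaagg
Of the 4 members called lower with all samples, 2 held the core, and the upstream windows of Rps15 and Rpl27 did not. A match describes the letters only.

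The remaining members were close together and mostly below 0. The stalk proteins, which recruit elongation factors to the large subunit, had log2 fold changes of -0.10 for Rplp0, -0.21 for Rplp1 and -0.21 for Rplp2. None of the 3 passed with all samples, and Rplp1 and Rplp2 were lower without JHU083 replicate 3 (-0.33 and -0.32; edgeR adjusted p = 0.0141 for each). With the offset in the same samples both calls ended, at -0.06 (adjusted p = 0.595) and -0.08 (adjusted p = 0.404). Rplp1 had 1747, 1489, 1411, 1750 and 1802 CPM in vehicle and 1297, 1165, 1904, 1451 and 1296 CPM in JHU083.

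Rpl5 and Rpl11, which join the smallest ribosomal RNA of the large subunit and can bind the p53 regulator Mdm2, were at -0.06 and -0.18. Without JHU083 replicate 3, Rpl11 was lower (-0.28; edgeR adjusted p = 0.0218), and Rpl5 stood at -0.14 (adjusted p = 0.131). With the offset in the same samples the order was the opposite: Rpl5 was lower (-0.26; adjusted p = 0.00894) and Rpl11 was not called (-0.11; adjusted p = 0.234). Rps6, the substrate of the S6 kinases, was at 1089, 983, 954, 1022 and 1103 CPM in vehicle and 876, 734, 1158, 980 and 853 CPM in JHU083. Its log2 fold change was -0.16 with all samples (edgeR adjusted p = 0.259) and -0.26 without JHU083 replicate 3 (adjusted p = 0.0293), a call that ended with the offset (-0.15; adjusted p = 0.11). The proteins altered in inherited or acquired anaemias, Rps14 and Rps19, were at -0.18 and -0.07. Of these, Rps14 was lower without that sample (-0.31; adjusted p = 0.0125), but not with the offset as well (-0.09; adjusted p = 0.298).

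Several members have known roles outside protein synthesis. Rpl13a, which in interferon-treated monocytes leaves the ribosome to silence inflammatory mRNAs, was at -0.11 (edgeR adjusted p = 0.521), and at -0.24 without JHU083 replicate 3 (adjusted p = 0.0387). With the offset these values were 0.00 and -0.05, and the call ended (adjusted p = 0.572). Its locus also lists Flt3l, Mir5121 and Snord33. Rpl26 and Rpl22 were at -0.01 and -0.09, Rps3 at -0.08 and Rpl38, needed for translation of Hox mRNAs in the embryo, at -0.16. Rpl38 was lower without JHU083 replicate 3 (-0.27; edgeR adjusted p = 0.0266), a call that ended with the offset (-0.00; adjusted p = 0.977). Rps27a, made as a fusion with ubiquitin, was at -0.18 and was lower without JHU083 replicate 3 (-0.31; edgeR adjusted p = 0.0127), also with the offset (-0.23; adjusted p = 0.0174).

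At the upper end of the set, no member was called higher without the offset, whether JHU083 replicate 3 was kept or left out. Rpl10, added late in large-subunit maturation, was at 1320, 1172, 1205, 1276 and 1380 CPM in vehicle and 1334, 1138, 1622, 1356 and 1216 CPM in JHU083, a log2 fold change of 0.07 (edgeR adjusted p = 0.618). Rps29 was at 558, 516, 474, 579 and 604 CPM in vehicle and 559, 508, 636, 592 and 550 CPM in JHU083, a log2 fold change of 0.06 (adjusted p = 0.603). Rpl3, next to the peptidyl transferase centre, was at 0.06, Rps9 at 0.04, Rps27 at 0.03 and Rps4x at 0.01. For these 6 members most treated samples lay within the vehicle range, with JHU083 replicate 3 above it. Without that sample Rpl10, Rpl3, Rps9, Rps27 and Rps4x were slightly below 0, from -0.01 to -0.08, and Rps29 was at 0.02. With the offset Rps29 (0.18; edgeR adjusted p = 0.0201) and Rpl21 (0.16; adjusted p = 0.0383) were higher. Without JHU083 replicate 3 these calls with the offset stayed, at 0.20 (adjusted p = 0.0132) and 0.15 (adjusted p = 0.0469).

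Levels per length, as the authors' FPKM (fragments scaled for transcript length and library size), spanned a wide range. Rplp1 was highest, at 5411 ± 554 FPKM in vehicle and 4680 ± 866 in JHU083, followed by Rpl41 at 5157 ± 381 and 4173 ± 684 (SD, n = 5 each). The locus with Rpl13a and Flt3l came next, at 4470 ± 315 and 4430 ± 908. At the other end were Rpl26 at 281 ± 8.76 and 279 ± 42.0 FPKM and Rps27l, a p53-responsive paralog of Rps27, at 254 ± 20.1 and 212 ± 27.4. Rps27 itself was at 2200 ± 141 and 2226 ± 297 FPKM. FPKM of the shortest mRNAs is sensitive to the effective length used, and members with near-identical copies elsewhere in the genome may have lost or gained reads. Loci named as ribosomal protein pseudogenes numbered 274 and held 0.0715% to 0.105% of fragments.

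The paralogs used in other tissues were near the floor. Rpl3l, known from heart and skeletal muscle, and Rpl39l, known from testis, had at most 7 fragments in any library, as did Rpl6l. Rpl10l, another testis paralog, had 0 fragments in 8 libraries and 1 in each of the other 2. These 4 loci were not tested. Rps4l was at 1.54 ± 0.759 FPKM in vehicle and 1.78 ± 1.08 in JHU083, with a log2 fold change of 0.25 ± 0.40 (SE; edgeR adjusted p = 0.649).

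The members rose and fell together from library to library. Among the 76 members other than Rps4l, JHU083 replicate 3 had the highest CPM of the 10 samples for 61, and JHU083 replicate 2 had the lowest for 73. The median member deviated from its own mean over samples by 0.16, -0.02, -0.06, 0.10 and 0.18 on the log2 scale in vehicle replicates 1 to 5, and by -0.15, -0.33, 0.31, 0.01 and -0.18 in JHU083 replicates 1 to 5. The within-group SD of log2 CPM had a median of 0.19 over members, against 0.14 over the 1826 loci of at least 100 CPM. These medians were 0.13 and 0.12 without JHU083 replicate 3. Once the sample's median member was subtracted, the members' SD was 0.05. Most of the members' spread within groups was thus shared by the set in each library. Rps2 varied most (SD 0.25). Rps18 was also among the most variable (0.23), and Rpl4, Rps29 (0.13 each) and Rpl5 (0.14) were the least variable.

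**Figure D3:**
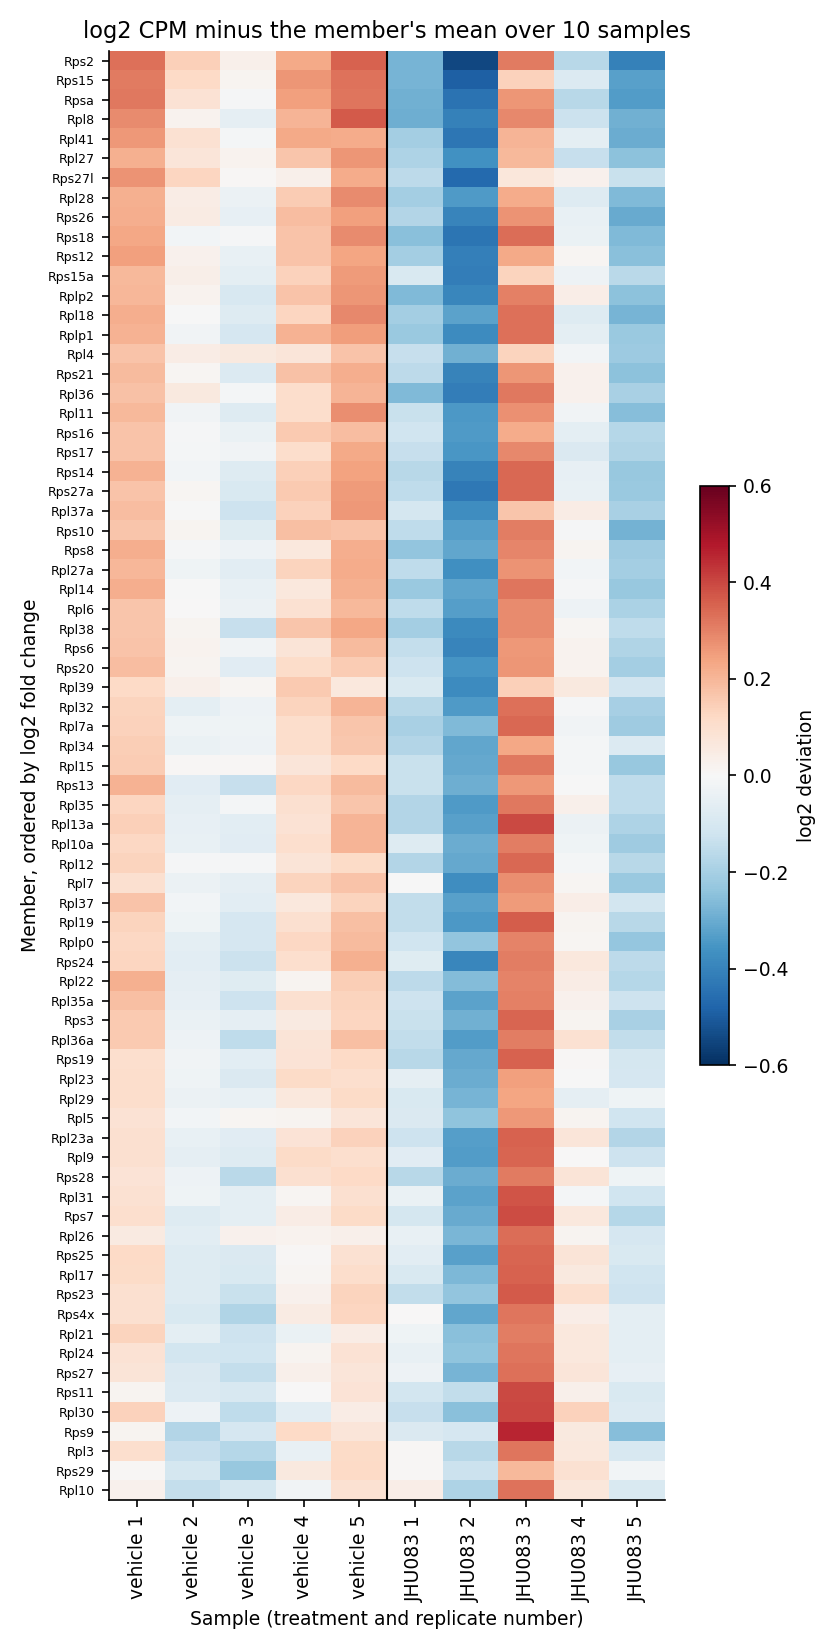
Deviation of log2 CPM from each member's mean over the 10 samples (colour, red higher and blue lower), with 74 members in rows ordered by log2 fold change and samples in columns. JHU083 replicate 3 is red and JHU083 replicate 2 blue through nearly the whole set.

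Relative to the median member, the make-up of the set differed between groups for some members. For 9 of 77 members the relative level was lower in every JHU083 sample than in every vehicle sample, and for 10 of 77 it was higher, where 5.73% and 8.0% of all loci did so on the same scale. Rps2 stood at -1.31 to -1.24 in vehicle and -1.62 to -1.43 in JHU083 on the log2 scale, with replicate 3 at -1.43. Rps15 stood at 0.22 to 0.28 and -0.06 to 0.01, and Rpsa at 1.32 to 1.40 and 1.03 to 1.18. In the other direction, Rpl3 stood at 0.36 to 0.47 in vehicle and 0.52 to 0.73 in JHU083, and Rpl10 at 0.69 to 0.83 and 0.84 to 1.03. The lists hold only members whose 2 groups did not overlap on this scale, so each sample lies with its group by the way they were chosen. The 9 lower members, among them Rps2, Rps12, Rps15, Rps26, Rpsa, Rpl8, Rpl27 and Rpl41, had a median GC content of 56.3% (48.6% to 58.0%). The 10 higher members, among them Rpl3, Rpl10, Rpl21, Rps27 and Rps4x, had one of 49.5% (45.2% to 54.3%). After correction for GC content and length, 7 members were separated in the lower and 9 in the higher direction. Of those separated before it, 5 of the 9 (among them Rps2, Rps12, Rps26 and Rpsa) and 3 of the 10 (Rpl3, Rps27 and Rps4x) still did not overlap in the same direction. Shares of all loci on the corrected scale are not given here, so the corrected counts have no background.

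Transcript length and GC content moved with the treatment and with the libraries across all loci. Ribosomal protein mRNAs are short, with a median GENCODE transcript length of 680.5 bases over 76 members against 2694 bases over 12190 loci, and a median GC content of 51.8% against 50.41%. Among loci that are no members, those under 600 bases had a median log2 fold change of -0.12, close to the members' -0.13, those from 600 up to 1000 bases -0.10, and those of 4000 bases or more 0.10. Loci under 42% GC had a median of 0.24 and those of 54% or more -0.11. The libraries differed in this order. Loci under 600 bases deviated from their means by 0.12, 0.01, -0.06, 0.12 and 0.13 in vehicle replicates 1 to 5 and by -0.12, -0.19, 0.17, -0.03 and -0.13 in JHU083 replicates 1 to 5. Loci of 4000 bases or more lay on the other side of 0 in vehicle replicates 1, 3, 4 and 5 and in all 5 JHU083 samples. Set beside the median member's deviations given above, the short loci had the opposite sign in vehicle replicate 2 and JHU083 replicate 4 and the same sign in the other samples. The median member lay further from 0 than the short loci in vehicle replicates 1 and 5 and JHU083 replicates 1, 2, 3 and 5 and nearer to 0 in vehicle replicate 4.

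**Figure D4:**
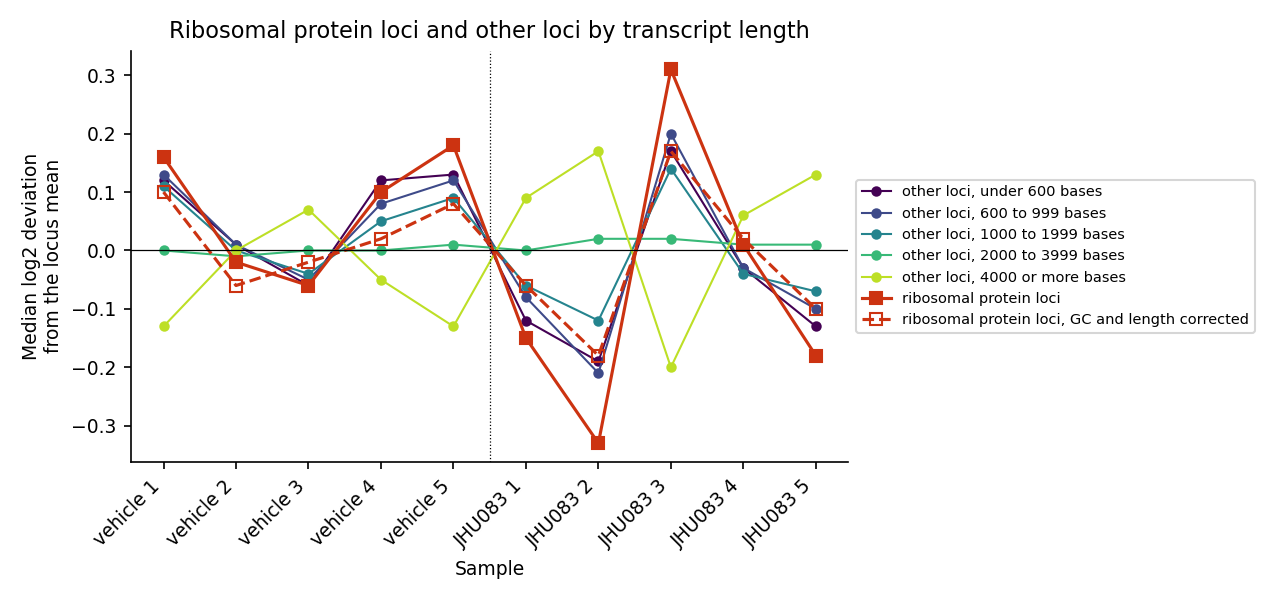
Median log2 deviation from the locus mean (vertical axis) in each of the 10 samples (horizontal axis), for loci that are no members in 5 classes of transcript length and for the ribosomal protein loci before (filled squares) and after (open squares) correction for GC content and length. In JHU083 replicate 3 short loci are above 0 and loci of 4000 bases or more below it (-0.20), and in JHU083 replicate 2 the order is the opposite.

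With a smooth curve of GC content and length taken out of each sample as an offset, the members' median log2 fold change was -0.04, against 0.04 for all loci. In that edgeR fit 6 members were lower and 2 higher, where 39.5% of all loci were called (17.2% lower and 22.2% higher). The lower ones were Rps2 (-0.23), Rps15 (-0.20), Rpl27 (-0.19), Rps15a (-0.22), Rps26 (-0.22) and Rps27l (-0.29). The higher ones were Rps29 (0.18) and Rpl21 (0.16). Rpsa stood at -0.21 with the offset (edgeR adjusted p = 0.102), and was lower with the offset and without JHU083 replicate 3 (-0.28; adjusted p = 0.00979). Without JHU083 replicate 3 and with the offset, 16 were lower and 2 higher, with 42.5% of all loci called (19.7% lower and 22.8% higher), and the median was -0.09. Rps2, Rps15 and Rpl27 were lower in all 4 fits, with or without the offset and with or without that sample. Their length and GC content are 998 bases and 56.5%, 500 bases and 57.8%, and 614 bases and 52.4%.

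Among the members themselves, the log2 fold change went with GC content more than with length. Across 76 members, Pearson's r was -0.32 and Spearman's rho -0.31 with GC content, and -0.03 and 0.03 with transcript length; these members share libraries and are not independent. The 25 members of lowest GC content had a median log2 fold change of -0.09, the middle 25 -0.12 and the highest 26 -0.19. With the offset these medians were -0.08, -0.04 and -0.01.

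**Figure D5:**
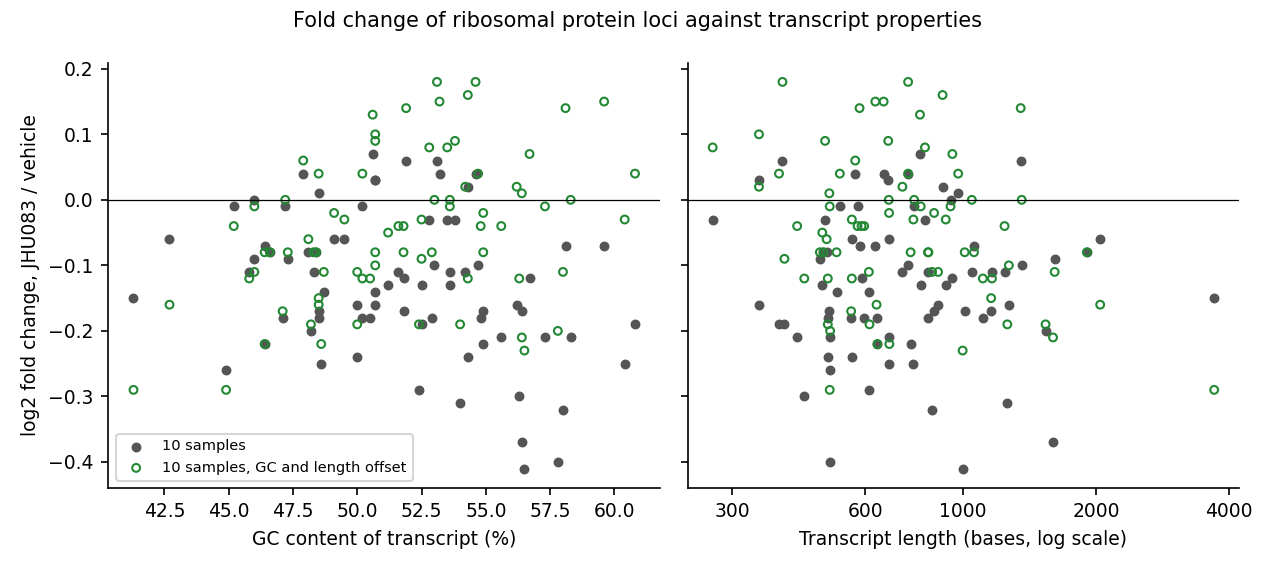
Log2 fold change (JHU083 over vehicle) of 76 ribosomal protein loci against transcript GC content (left, %) and transcript length (right, bases, log scale), with all samples (filled) and with the GC and length offset (open). Across members r was -0.32 with GC content and -0.03 with length before the offset.

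The 7 loci of ribosomal protein genes that the symbol rule misses gave values within the members' range. They include Rps3a1, Rpl36al, Rpl22l1, Rpl7l1, Fau and Rack1 and had log2 fold changes from -0.26 to -0.03, and 0 of 7 passed in edgeR's test with all samples. Without JHU083 replicate 3, where 46.0% of all loci were called and 23.1% were lower, 5 of 7 were lower, among them Rack1 (-0.37), Fau (-0.29), Rpl36al (-0.27) and Rpl22l1 (-0.26). With the offset in the same samples 2 of 7 were lower, Rack1 (-0.28) and Rpl22l1 (-0.37), where 19.7% of all loci were lower. With the offset and all samples 1 of 7 was lower, Rpl22l1 (-0.27; edgeR adjusted p = 0.0352), where 17.2% of all loci were lower. Rack1 is a scaffold on the small subunit, and Fau encodes a ribosomal protein fused to a ubiquitin-like protein. Fau had 1454, 1250, 1176, 1419 and 1492 CPM in vehicle and 1158, 984, 1646, 1211 and 1085 CPM in JHU083, again with replicate 3 above the vehicle range.

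Other TOP mRNAs, mainly translation factors, were described from a list of 20 loci tested. Their median log2 fold change was -0.13, with 1 higher and 3 lower (36.7% of all loci were called), and without JHU083 replicate 3 1 was higher and 10 lower (median -0.19; 46.0% of all loci called). With the offset in the same samples 1 was higher and 6 lower, where 42.5% of all loci were called (22.8% higher and 19.7% lower). Tpt1, a growth-associated protein whose mRNA is a classic TOP mRNA, was at 2495, 2378, 2361, 2481 and 2481 CPM in vehicle and 3078, 2629, 3859, 3374 and 2926 CPM in JHU083. It was higher in all 5 treated samples (log2 fold change 0.38 ± 0.11, SE; edgeR adjusted p = 0.0145). The lower ones were the histone chaperone Nap1l1 (-0.33; adjusted p = 0.00288), the splicing regulator Hnrnpa1 (-0.33; adjusted p = 0.000852) and the elongation factor subunit Eef1g (-0.33; adjusted p = 0.0351). In Nap1l1 and Hnrnpa1 the groups did not overlap. The call of Eef1g was lost on leaving out any of the 7 samples named for Rps2 (adjusted p up to 0.0856).

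Ribosome biogenesis genes, most of which act in the nucleolus, were lower in 17 of 28 cases and higher in 1, with a median log2 fold change of -0.42, where 18.3% of all loci were lower and 18.4% higher. Without JHU083 replicate 3 the counts were again 17 and 1 (median -0.43). Myc, a transcription factor that drives this programme and ribosomal protein genes, was at 42.9, 60.0, 62.5, 45.5 and 41.1 CPM in vehicle and 28.5, 28.9, 20.7, 30.4 and 28.2 CPM in JHU083. Every treated sample was below every vehicle sample (log2 fold change -0.88 ± 0.14, SE; edgeR adjusted p = 0.000256), and JHU083 replicate 3, highest for the ribosomal protein mRNAs, was the lowest for Myc. The higher gene was Gnl3 (0.28; adjusted p = 0.0286), which encodes nucleostemin; its call was lost on leaving out vehicle replicate 1 or 5 or JHU083 replicate 4 or 5 (adjusted p up to 0.0836). Tumour epithelial and cell cycle markers fell in the same samples, as given above, and their part in these values was not tested.

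Of 15 genes of the mTORC1 and S6 kinase pathway, 3 were higher and 2 lower, a called share near the 36.7% of all loci, so the genes are given singly; with the offset 5 were higher and 2 lower, where 39.5% of all loci were called. Larp1, which binds TOP mRNAs at the cap, was at 158, 155, 152, 171 and 158 CPM in vehicle and 122, 108, 93.2, 114 and 120 CPM in JHU083. The groups did not overlap, and its log2 fold change was -0.51 ± 0.08 (SE; edgeR adjusted p = 0.000263). Eif4ebp1, a repressor of cap-dependent translation that mTORC1 inactivates, was lower as well (-0.41; adjusted p = 0.00736). The Rag GTPases Rragd (1.39; adjusted p = 0.00031) and Rragc (0.50; adjusted p = 4.44e-05), which bring mTORC1 to the lysosome, and its inhibitor Tsc1 (0.48; adjusted p = 0.00442) were higher. Host genes of small nucleolar RNAs, several of which begin with a TOP tract, numbered 8. Of these, Snhg8 (0.36), Snhg5 (0.33) and Snhg15 (0.30) were higher and Snhg3 (-0.45) lower in edgeR's test, where 18.4% of all loci were higher and 18.3% lower. With the offset 5 of the 8 were higher and 1 lower, where 22.2% of all loci were higher and 17.2% lower. The Snhg3 call held with each sample left out (adjusted p up to 0.0185). Its locus also lists Rcc1 and Snora73a, so this value cannot be credited to Snhg3 alone. Leaving out 1 sample ended the call of Snhg8 in 6 of 10 cases, JHU083 replicate 3 among them (0.25; adjusted p = 0.0647), that of Snhg15 in 7 and that of Snhg5 in 3 (adjusted p up to 0.085, 0.112 and 0.0527).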

How the data were processed

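Each of the 10 tables lists 46957 loci with 2 values. The first, deposited by the authors under a raw count heading per the file headers, is not whole and was taken to hold expected counts. The second, from its values, holds FPKM that the authors deposited as normalized. Dividing the scaled counts by a step found for each sample gave whole numbers (within 0.02) for 99.1% to 99.4% of positive values, and these rounded fragment counts were tested. Per the submitters' processing notes, bcl2fastq 2.17.1.14, FastQC 0.11.2, TopHat2 2.1.1 and GRCm38 were used; the counting program and its handling of reads that match several places are not given in the sources used here. Depth was 11147870 to 15740700 fragments per sample.

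Samples were grouped by labelled treatment. The main test was edgeR 4.0.16 (R 4.3.3): filterByExpr, TMM scaling, a quasi-likelihood F-test with no covariate, and Benjamini-Hochberg adjustment over all 12501 loci at 0.05. Single-gene CPM use TMM-scaled totals, log2 CPM has a prior count of 2, and shares use all fragments. Alternatives were DESeq2 1.42.0, limma 3.58.1 (voom), other scalings and filters, a GC and length offset (mgcv 1.9.3), the replicate number, library subsets and each sample left out. On simulated counts for 12501 loci with 200 changed by 1 on the log2 scale, edgeR recovered 82.5% with 5.2% false calls, and made 0 calls (610 at an unadjusted p under 0.05) with none changed. Simulated loci varied independently, whereas the members varied together and had log2 fold changes of only -0.41 to 0.25. These rates therefore do not carry over to the members.

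GENCODE M21 (GRCm38) gave transcript length and GC content for 12190 tested loci, and all 81 members matched by symbol. The shortest principal coding transcript was used. Start sites are RefSeq's, GRCm38.p6. Protein sequences were not used here.

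The members and lists were chosen with earlier results of these data known. Genes named are, by a fixed rule, the 5 highest and 5 lowest members by log2 fold change, the 3 highest and lowest by FPKM, the 3 most and least variable, the paralogs, a panel by role, and the highest and lowest of each list. Rpl27, Rpl21, Rps10, Rps12, Rps15a, Rps26, Rpl28, Rpl35, Hnrnpa1, Eef1g, Snhg5, Snhg15, Rragc, Tsc1, Eif4ebp1 and the marker genes were added after their values or sequences were seen. Some genes that the rule names are not reported here.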

Additional observations from a re-analysis of the deposited data

Results flagged for a closer look

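In 96 groups of 5 samples, 2 held a sample far from the others, where chance would flag about 4.8. In vehicle, Rpl26 was lowest in replicate 2 at a log2 CPM of 6.50, with the other 4 samples at 6.58 to 6.61. In JHU083, Myc was lowest in replicate 3 at a log2 CPM of 4.38, with the others at 4.82 to 4.93.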

How the results depend on the processing

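The number of lower members (4) was 10 with DESeq2, 7 each with limma-voom, with RLE size factors, with a filter of 1 CPM in 5 samples and with the deposited values rounded, 19 with library size only, 2 with the replicate block, 0 in only the samples at 0 for Rn18s-rs5 and Gm42418 (0 also at an unadjusted p under 0.05, 8.79% of all loci called), 9 with the offset using the length implied by the files and 16 with the offset and without JHU083 replicate 3; with 1 sample left out it ranged from 1 to 42. The number of higher members (0) was 2 with the offset, 1 with the replicate block and offset, 3 with the implied length and 2 with the offset and without JHU083 replicate 3. Counts with no share of all loci beside them, here or earlier, are not set against a general level. Scaling to library size only shifted the median of all loci to -0.07 and that of the members to -0.21. In only the samples not at 0, 5 members were lower (median -0.22, 21.7% of all loci called), and in only the samples at 0 the median was 0.01. The median within-group SD (0.19) was 0.11 after the correction. Same-numbered samples did not deviate together (correlations -0.2, 0.09, -0.57, -0.12 and -0.16), so the numbers were not taken as pairs. The members' median log2 fold change (-0.13) ran from -0.22 to -0.04 under the alternatives other than only the samples at 0 (0.01), and was -0.04 with the offset, -0.05 with the replicate block and offset and -0.09 with the offset and without JHU083 replicate 3. The difference in share (-0.89 points) ran from -1.22 without JHU083 replicate 3 to -0.66 over loci that list 1 symbol. The offset with the implied length and the fits that combine the offset or the GC and length correction with a left-out sample were chosen after seeing the data.

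Of 1170 values of 45 named genes under the alternatives, 1011 kept direction and side of the threshold, 45 lost and 56 gained a call (17 of these without JHU083 replicate 3), and 58, of 20 genes and none of a called value, changed sign. Signs changed with the offset for Rpl26 (0.04), Rpl38 (0.02), Rps19 (0.15), Rps28 (0.08), Fau (0.04) and Rpl7l1 (0.02). With the replicate block and offset they changed for Rpl26 (0.04), Rpl38 (0.02), Rps19 (0.14), Rps28 (0.08), Fau (0.03) and Rpl7l1 (0.02). With the implied length they changed for Rpl13a (0.01), Rpl26 (0.04), Rplp0 (0.01), Rps19 (0.15), Rps28 (0.02) and Fau (0.04), and with the offset and without JHU083 replicate 3 for Rps19 (0.11) and Rps28 (0.06). With library size only they changed for Rpl10 (-0.01), Rpl3 (-0.02), Rps27 (-0.05), Rps29 (-0.02), Rps4x (-0.08) and Rps9 (-0.04). In only the samples not at 0 they changed for Rpl10 (-0.04), Rpl3 (-0.04), Rps27 (-0.06), Rps4l (-0.02), Rps4x (-0.08) and Rps9 (-0.06). In only the samples at 0 they changed for Rpl13a (0.06), Rpl22 (0.05), Rpl26 (0.17), Rpl5 (0.08), Rplp0 (0.02), Rps19 (0.06), Rps28 (0.03), Rps3 (0.08), Fau (0.02), Rpl22l1 (0.03), Rps3a1 (0.09) and Rpl7l1 (0.09). With 1 sample left out in turn, signs changed within the ranges -0.01 to 0.12 for Rpl10, -0.11 to 0.05 for Rpl26, -0.02 to 0.11 for Rpl3, -0.10 to 0.01 for Rpl7l1, -0.06 to 0.10 for Rps27, -0.12 to 0.04 for Rps28, -0.15 to 0.01 for Rps3a1, -0.16 to 0.44 for Rps4l, -0.08 to 0.08 for Rps4x and -0.08 to 0.11 for Rps9. Beyond the differences in samples and loci that each alternative makes, the cause was not tested.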
